A study of Mus musculus with 9 samples.

Results

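The type 1 vomeronasal receptors (V1Rs) were described here across 9 expression arrays of mouse retina. A probe set was counted as a member when at least 1 of its annotated symbols began with Vmn1r, which gave 224 of the 25341 named probe sets, out of 41345 on the array. Of these, 180 named a single gene and 44 named several genes. Probe sets that held the same 9 values were counted once, which left 210 profiles, 180 single-gene and 30 multi-gene, together naming 232 Vmn1r genes. The family was chosen by its own values in earlier results of these arrays, in which its multi-gene probe sets were brighter than control at both doses. All differences from control below are therefore given as a description, and counts past a threshold are printed beside the share over all named probe sets, with nothing read from them.

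V1Rs are G protein-coupled receptors of the sensory neurons in the apical layer of the vomeronasal organ, where they detect pheromones and other chemical cues from urine and gland secretions. A neuron typically uses 1 V1R gene, and its signal runs through the G protein subunit Gnai2, phospholipase C and the channel Trpc2. The genes have a short coding region without introns and lie in clusters of close relatives, many of which are near-identical copies or pseudogenes. Expression arrays read such copies with probes that can match several of them.

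The arrays measured retinal RNA of 6-week-old male C57BL/6 mice, with intact retinas, 7 days after an intravitreal injection of 1 μL. There were 3 groups of 3 arrays: control, 1 μg per eye and 10 μg per eye of an anti-C5 antibody, which is directed against complement component C5. Each array held the pooled RNA of 4 retinas from 4 mice, so the spread within a group is that between pools, and whether pools share mice is not clear from the sources. The labels of the control arrays name PBS, whereas the methods name an isotype antibody, and the arrays are called control here. Values were log2 expression on a scale that ran from 1.35 to 13.74, with array medians between 5.88 and 6.04.

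The tissue label was checked against its markers. Of 15 retinal markers, 13 were measured by a probe set of 1 gene, with control means from 7.35 to 13.51, the rod transducin Gnat1 being the highest. Lens markers (7 measured) had a median difference of -1.34 at 10 μg and skeletal muscle markers (6 measured) one of -0.51, and both varied between control arrays by over 1 log2 unit. Retinal pigment epithelium markers (6 measured) had a median of 0.19, from -0.08 for Tyr to 0.63 for Rpe65, and none of them had all 10 μg arrays above or below control. The part of these tissues in the Vmn1r differences was not tested.

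Of the 232 genes, 127 lie on chromosome 7, 51 on chromosome 6, 36 on chromosome 13 and 14 on chromosome 17 in the RefSeq gene table. The results below turn on 1 run of neighbouring genes on chromosome 7, from Vmn1r91 to Vmn1r183, in which the table places 99 Vmn1r genes and the array names 87. Of the 30 multi-gene profiles, 25 name genes of this run, and they name 71 genes among them. These profiles overlap in what they name, since 68 of the 71 genes are named by several profiles and 1 gene by up to 7, so they are not independent readings. As few as 2 and as many as 22 symbols stand behind a multi-gene profile, with a median of 13.

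The copies behind these profiles can be seen at the start of the genes. The following stretches, from RefSeq (assembly GRCm38.p6), run from 100 bases before the annotated gene start through the first 50 bases of the gene, and the capitals mark the gene from its ATG onwards. The first 6 genes have the highest differences from control at 10 μg among single-gene probe sets, Vmn1r116 is a gene of the same run whose own probe set was not higher, and Vmn1r227, on chromosome 17, had the lowest difference.
Vmn1r129: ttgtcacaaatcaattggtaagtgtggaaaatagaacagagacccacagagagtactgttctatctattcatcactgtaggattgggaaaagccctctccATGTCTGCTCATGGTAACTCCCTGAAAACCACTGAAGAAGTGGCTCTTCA
Vmn1r94: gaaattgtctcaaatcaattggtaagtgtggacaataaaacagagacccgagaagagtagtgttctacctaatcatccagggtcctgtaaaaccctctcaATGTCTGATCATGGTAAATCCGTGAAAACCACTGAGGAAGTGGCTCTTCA
Vmn1r103: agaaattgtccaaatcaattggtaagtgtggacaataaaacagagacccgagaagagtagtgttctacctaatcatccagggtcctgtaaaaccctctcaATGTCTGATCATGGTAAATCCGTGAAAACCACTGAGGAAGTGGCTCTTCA
Vmn1r127: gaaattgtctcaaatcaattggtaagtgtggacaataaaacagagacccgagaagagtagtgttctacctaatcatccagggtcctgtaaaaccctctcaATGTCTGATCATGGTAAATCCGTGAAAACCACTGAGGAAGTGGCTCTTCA
Vmn1r91: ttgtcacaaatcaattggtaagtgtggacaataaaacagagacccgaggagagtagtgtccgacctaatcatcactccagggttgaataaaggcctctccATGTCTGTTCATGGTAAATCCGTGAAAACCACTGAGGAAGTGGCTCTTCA
Vmn1r157: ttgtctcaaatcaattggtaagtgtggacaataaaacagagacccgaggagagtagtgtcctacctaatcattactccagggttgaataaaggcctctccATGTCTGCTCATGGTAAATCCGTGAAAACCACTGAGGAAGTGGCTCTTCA
Vmn1r116: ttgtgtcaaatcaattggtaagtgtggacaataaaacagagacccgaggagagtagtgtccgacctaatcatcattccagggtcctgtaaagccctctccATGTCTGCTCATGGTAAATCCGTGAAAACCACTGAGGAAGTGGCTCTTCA
Vmn1r227: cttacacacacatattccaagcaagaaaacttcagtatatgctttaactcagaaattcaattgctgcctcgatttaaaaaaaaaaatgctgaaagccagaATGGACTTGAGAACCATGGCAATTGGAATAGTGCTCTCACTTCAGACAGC
They lie at chr7:21361242-21361391 (Vmn1r129, minus strand), chr7:20168328-20168477 (Vmn1r94, minus), chr7:20510485-20510634 (Vmn1r103, minus), chr7:21319812-21319961 (Vmn1r127, minus), chr7:20101058-20101207 (Vmn1r91, plus), chr7:22761597-22761746 (Vmn1r157, plus), chr7:20872156-20872305 (Vmn1r116, plus) and chr17:20735106-20735255 (Vmn1r227, plus). Over the whole 300-base windows, which hold 250 bases before the start and the first 50 of the gene, Vmn1r94 matched Vmn1r127 at 99.0% of aligned bases and Vmn1r103 at 98.0%. Vmn1r91 matched Vmn1r157 at 97.7% and Vmn1r116 at 97.3%. Vmn1r129 stood further off, at 84.9% to Vmn1r94 and 87.2% to Vmn1r157, though its own nearest window matched it at 99.7%. Vmn1r227 had no window at 90% or more.

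Windows were found for 206 of the 232 genes, and the 181 with an ATG at the gene start were compared in pairs. TATAAA was counted in windows with or without that ATG. Among genes that a profile of the run names together, 601 of 854 pairs matched at 90% or more and 51 pairs were identical over the window. Among genes of the run that multi-gene profiles name but never together, 428 of 1357 pairs did. Outside the run, 1515 pairs not named together could be aligned over at least 240 bases, and 25 of these did, while 3736 others could not. The letters TATAAA, on either strand of the 250 bases before the start, occurred in 37 of 68 windows (54.4%) of the run's genes in multi-gene profiles, in 40 of 123 (32.5%) of Vmn1r genes outside the run and in 13.0% of 27025 windows of all genes. Many of the run's windows are near copies of each other, so they are not independent counts. Most Vmn1r windows have an ATG at the gene start, which was not counted over all genes. The 13.0% may therefore come from unlike stretches, and the differences between these shares were not tested. The windows are gene starts, and the positions of the array's probes were not used here.

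The multi-gene profiles of the chromosome 7 run were higher than control at both doses. Their median log2 difference was 2.15 at 10 μg (4.43-fold, n = 25 profiles) and 1.42 at 1 μg (2.67-fold), with a median standard error of 0.41. Which of the named genes give the signal cannot be told apart in such a profile, nor, in bulk retina, can more cells of a type and more RNA per cell. The median over all named probe sets was 0.02 at 10 μg and 0.04 at 1 μg. The authors also used limits of 2-fold and p under 0.05, but the test behind their p is not clear from the sources. At 10 μg, 24 of the 25 were over 2-fold higher with an unadjusted p under 0.05 in limma, beside 1.02% of all named probe sets, 0.227% of those of 1 gene outside the family and 8.97% of those of several genes outside it. At 1 μg, all 25 were past these thresholds, beside 0.639%, 0.0771% and 5.7%. Nothing is read from these counts, because the same differences chose the family. Without the third 1 μg array, 16 of the 30 multi-gene profiles were past the thresholds at 1 μg, against 25 with it. The share of all named probe sets was not computed without that array.

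**Figure D1:**
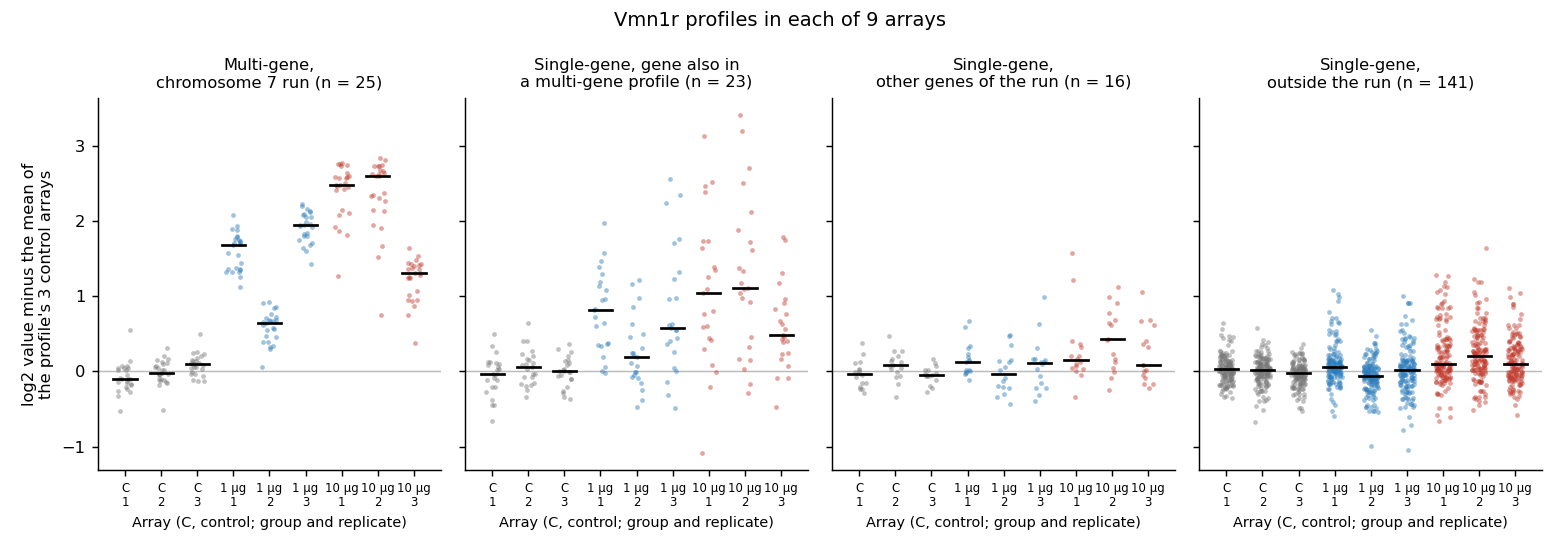
Each point is 1 Vmn1r profile on 1 array, as its log2 value minus the mean of its 3 control arrays, in 4 sets of profiles, with a black bar at the median. The multi-gene profiles of the chromosome 7 run sit at medians of 1.69, 0.65 and 1.94 on the 1 μg arrays and 2.49, 2.59 and 1.30 on the 10 μg arrays. Single-gene profiles outside the run have medians from -0.065 to 0.211, with single points further off.

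Of these, the highest difference from control at 10 μg was that of probe set 17474738, which names 17 symbols, Vmn1r100 among them. It was at 4.06, 4.13 and 4.30 in the control arrays, at 5.92, 4.81 and 6.22 after 1 μg and at 6.92, 6.99 and 5.80 after 10 μg. All treated arrays were above all control arrays, and the second 1 μg array and the third 10 μg array were the lowest of their groups. The differences were 2.41 at 10 μg (5.31-fold, standard error 0.40) and 1.49 at 1 μg (2.80-fold).

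Probe set 17487582, which names 14 symbols, Vmn1r111 among them, was at 4.88, 4.81 and 4.83 in control, 6.57, 5.50 and 6.93 after 1 μg and 7.61, 7.65 and 6.38 after 10 μg. The groups did not overlap between control and either dose, while 1 μg and 10 μg did. The probe set with the most symbols, 17487584 with 22, was at 4.31, 4.10 and 4.38 in control, 5.99, 4.81 and 6.19 after 1 μg and 6.83, 6.86 and 5.54 after 10 μg. It differed by 2.15 and 1.40. Apart from 1 profile, the 24 others of the run lay between 1.40 and 2.41 at 10 μg and between 1.04 and 1.60 at 1 μg.

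The exception was probe set 17474783, which names only Vmn1r95 and Vmn1r143. It was at 3.02, 1.95 and 2.43 in control, 4.55, 3.17 and 4.54 after 1 μg and 3.73, 3.22 and 2.85 after 10 μg. Its 1 μg arrays were all above control and its 10 μg arrays overlapped with control. It had the highest difference of any multi-gene profile at 1 μg, 1.62, and 0.80 (standard error 0.42) at 10 μg, under a 2-fold difference. Unlike the other multi-gene profiles of the run, its mean was among the lowest 25% of all probe sets, at or under 4.71.

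The order of the arrays within a group was shared across the run. In 25 of 25 profiles the second array was the lowest of the 1 μg group, and in 25 of 25 the third was the lowest of the 10 μg group. The profiles share genes, and the share of all named probe sets with this order was not computed. Other sets of profiles with the same order are given below. The median within-group standard deviation was 0.16 in control, 0.74 at 1 μg and 0.68 at 10 μg. All 3 arrays of the 10 μg group were above all control arrays in 24 of 25 profiles, beside 14.3% of all named probe sets, and all 3 of the 1 μg group in 23 of 25, beside 12.5%.

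The 5 multi-gene profiles that name other Vmn1r genes were near control, with a median difference of 0.05 at 10 μg and 0.06 at 1 μg. The profile of Vmn1r90 and Nlrp5-ps, a pseudogene of the oocyte gene Nlrp5, was at 4.04, 4.36 and 4.16 in control, 3.79, 3.69 and 4.14 after 1 μg and 3.98, 3.88 and 3.70 after 10 μg. It was the lowest of the multi-gene profiles, at -0.33 and -0.31. A pair of profiles with the same 6 symbols, Vmn1r186 among them, differed by 0.01 and 0.11 at 10 μg, Vmn1r189 with Vmn1r221 by 0.05, and Vmn1r206 with Vmn1r207 by 0.37 (standard error 0.23). None of these 5 was over 2-fold at either dose.

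Single-gene profiles differed in how far they lay from control. Whether a probe set that names 1 gene reads only that gene was not tested, because the array's probes were not used. The windows of Vmn1r94, Vmn1r103, Vmn1r127 and Vmn1r157, for example, each matched that of another gene at 100%. Over all 180 the median was 0.19 at 10 μg and 0.02 at 1 μg, and 11 were past both thresholds at 10 μg and 6 at 1 μg, beside the 0.227% and 0.0771% of probe sets of 1 gene outside the family. Of these, 10 and 6 belonged to the 23 single-gene profiles whose gene is also named by a multi-gene profile of the run, with medians of 0.75 and 0.54. The 16 profiles of other genes of the run had medians of 0.26 and 0.03, and the 141 outside it 0.14 and 0.00. The 1 μg median of the 180 profiles was -0.01 without the first 1 μg array.

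**Figure D2:**
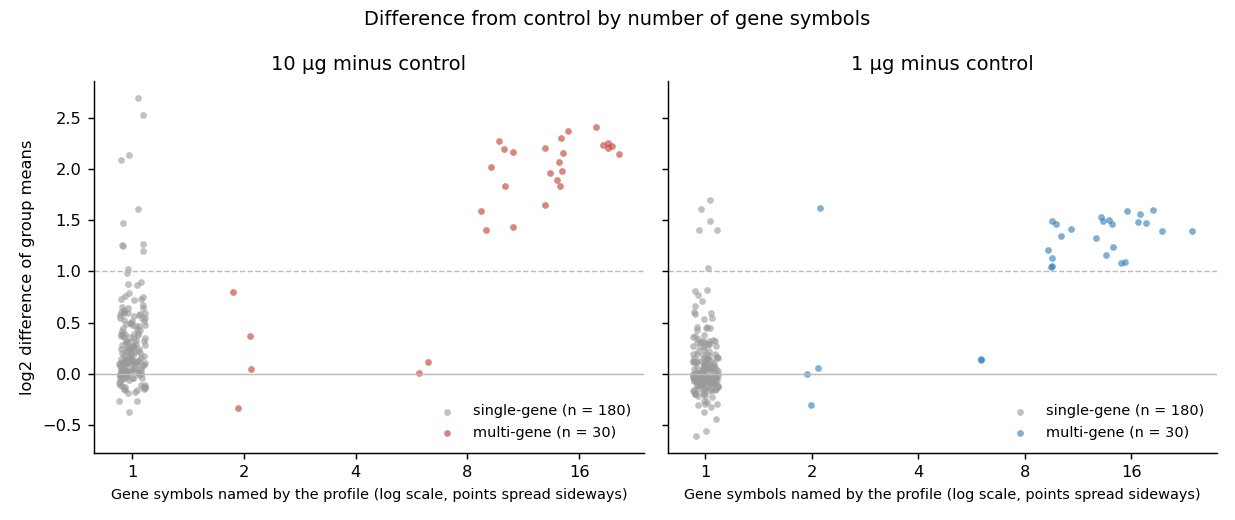
Each point is 1 profile, by the number of gene symbols it names (log axis, points spread sideways) and its log2 difference from control, at 10 μg on the left and 1 μg on the right; the dashed line marks a 2-fold difference. The 22 profiles of 10 or more symbols, all of the chromosome 7 run, have medians of 2.16 and 1.44, and the 180 of 1 symbol 0.19 and 0.02.

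By the number of symbols named, profiles of 10 or more symbols (n = 22) had a median of 2.16 at 10 μg, those of 4 to 9 (n = 4) 0.76, those of 2 to 3 (n = 4) 0.21 and those of 1 symbol 0.19. All 22 of 10 or more symbols were of the run. Profiles of 4 to 9 symbols ranged from 0.01 to 1.59 and those of 2 to 3 from -0.33 to 0.80. Both of these sets mix profiles of the run with others, so symbol number and membership of the run go together. In probe sets outside the family, counting identical values once, the medians were 0.39 for 10 or more symbols (n = 79), 0.20 for 4 to 9 (n = 239), 0.04 for 2 to 3 (n = 1275) and 0.02 for 1 (n = 23275). The difference between members and other probe sets was not tested.

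Among single-gene profiles Vmn1r129 had the highest difference from control at 10 μg. It was at 3.12, 3.71 and 3.87 in control, 5.53, 3.87 and 6.13 after 1 μg and 6.70, 6.77 and 5.31 after 10 μg. The 10 μg arrays were well above control, while the second 1 μg array lay at the level of the highest control. The differences were 2.69 at 10 μg (6.47-fold, standard error 0.59) and 1.61 at 1 μg.

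Vmn1r94, which had the highest difference at 1 μg, was at 5.14, 5.64 and 5.45 in control, 6.98, 6.58 and 7.75 after 1 μg and 7.80, 8.82 and 7.19 after 10 μg. It differed by 2.53 at 10 μg (5.77-fold, standard error 0.42) and 1.69 at 1 μg, and the doses overlapped. Vmn1r103, whose window is a near copy of that of Vmn1r94, was at 5.02, 4.88 and 5.26, then 6.53, 6.03 and 6.81, then 7.57, 7.76 and 6.23 in the same order. It differed by 2.13 and 1.40, again with no overlap with control.

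Vmn1r91, the first gene of the run, was at 4.19, 4.73 and 5.00 in control, 6.02, 5.49 and 6.87 after 1 μg and 7.10, 7.15 and 5.94 after 10 μg, differing by 2.09 and 1.49. Vmn1r157 was at 3.27, 4.34 and 4.19, then 5.23, 5.15 and 5.64, then 5.67, 6.06 and 4.90, differing by 1.61 and 1.40. Both stood apart from control on every treated array. Vmn1r127 differed by 1.48 and 1.03 with no overlap with control, and Vmn1r149 and Vmn1r158 by 1.27 and 1.26 at 10 μg and 0.67 and 0.77 at 1 μg. On the 1 μg arrays these last 2 overlapped with control.

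**Figure D3:**
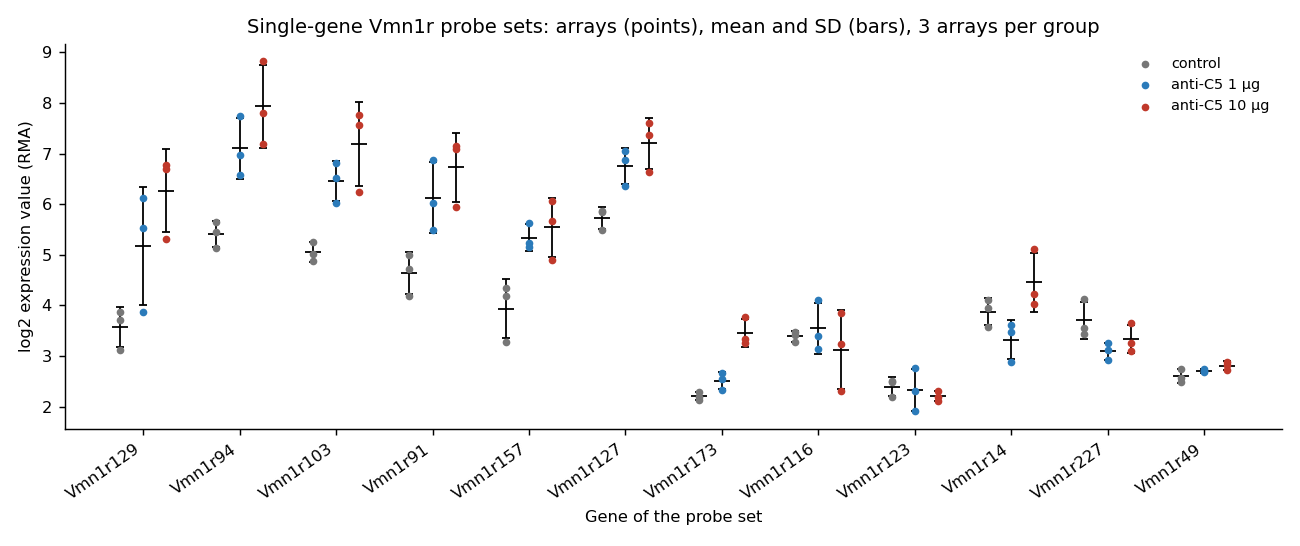
The log2 value of 12 single-gene Vmn1r probe sets on each array (points), with the mean and standard deviation of the 3 arrays of a group (bars), control in grey, 1 μg in blue and 10 μg in red. The first 6 genes sit above control at both doses, except that the second 1 μg array of Vmn1r129 is at the level of its highest control array, and Vmn1r116 and Vmn1r123 overlap with control at both.

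Differences were not alike over the single-gene profiles of the run. Vmn1r119 was at 5.85, 5.80 and 5.84 in control and 5.91, 5.87 and 5.75 after 10 μg, overlapping with control at a difference of 0.01, beside 1.83 to 2.07 in the 3 multi-gene profiles that name it. It was not among the dim probe sets, whereas Vmn1r116, Vmn1r123 and Vmn1r128 were.

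Vmn1r116 is named by 4 multi-gene profiles that were 2.15 to 2.25 above control at 10 μg, yet its own probe set was at 3.27, 3.42 and 3.47 in control, 4.11, 3.14 and 3.39 after 1 μg and 2.30, 3.23 and 3.84 after 10 μg. The groups overlapped and the difference was -0.27 (standard error 0.37) at 10 μg. Its window had 43 others at 90% or more.

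Vmn1r123 was at 2.19, 2.49 and 2.51 in control, 2.76, 2.30 and 1.92 after 1 μg and 2.18, 2.11 and 2.31 after 10 μg, a difference of -0.19, beside 2.20 in the 1 multi-gene profile that names it. Vmn1r128 differed by 0.13, beside multi-gene profiles at 2.15 or more above control. Of the 23 genes, 19 had a single-gene difference below every multi-gene profile that names them, Vmn1r129 and Vmn1r94 had one above all of theirs, and Vmn1r103 and Vmn1r91 lay within the range.

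Around the 2-fold line at 10 μg, Vmn1r124 (1.02) and Vmn1r148 (1.20) were just inside, and Vmn1r120 (0.98) and Vmn1r18 (0.89) just outside. Vmn1r120 was at 3.71, 3.03 and 3.36 in control and 4.41, 4.70 and 3.93 after 10 μg, with no overlap. Vmn1r18 lies on chromosome 6 and was at 3.24, 3.49 and 2.57 in control and 4.24, 3.78 and 3.96 after 10 μg, but at 3.33, 2.85 and 3.54 after 1 μg, within the range of control but for 1 array.

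Vmn1r173 was the gene of the run that no multi-gene profile names and that was over 2-fold at 10 μg. It was at 2.13, 2.30 and 2.19 in control, 2.54, 2.67 and 2.33 after 1 μg and 3.77, 3.33 and 3.26 after 10 μg. The 3 groups did not overlap, and the third 10 μg array was close to the second. The differences were 1.25 (2.38-fold, standard error 0.14) and 0.31. Its levels were among the lowest 25% of probe sets.

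**Figure D4:**
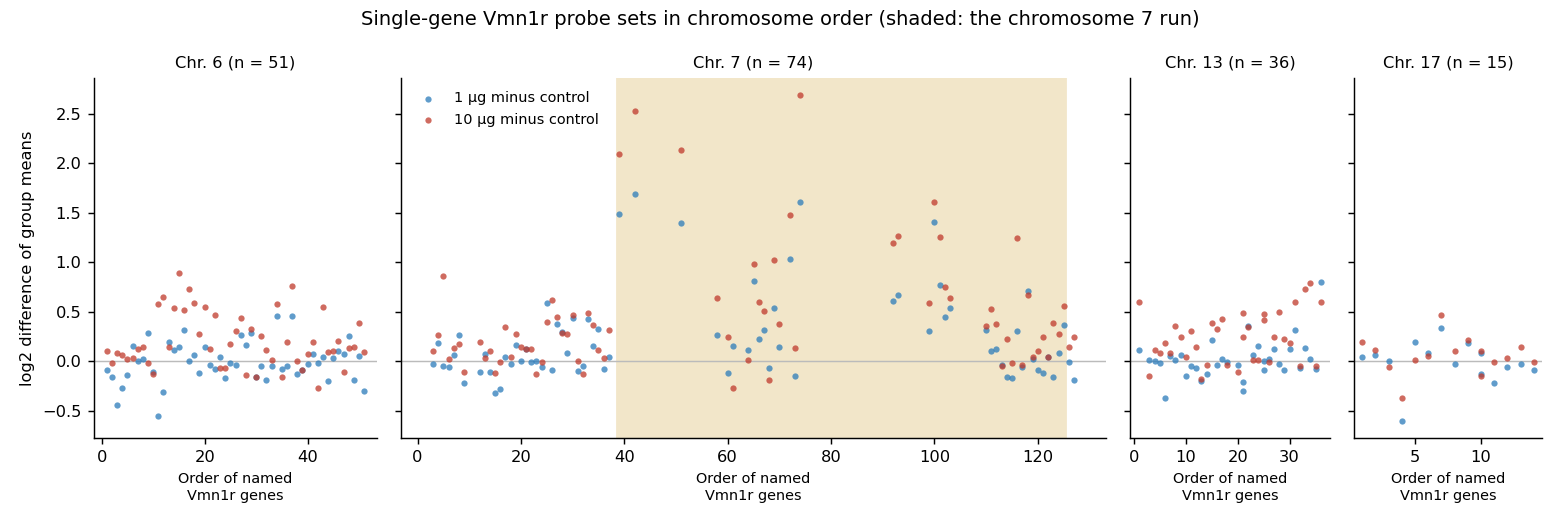
Log2 differences of single-gene Vmn1r probe sets from control (red, 10 μg; blue, 1 μg) in the order of the named genes along chromosomes 6, 7, 13 and 17, with the chromosome 7 run shaded. The values over 1 lie within the shaded run, and others of the run lie near 0.

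Along the chromosomes, the 39 single-gene profiles of the run had a median of 0.53 at 10 μg, and the 35 elsewhere on chromosome 7 one of 0.15. The median was 0.13 for the 51 on chromosome 6, 0.23 for the 36 on chromosome 13 and 0.05 for the 15 on chromosome 17. Every single-gene profile over 2-fold at 10 μg was of the run. By the older V1r family letters, where the gene table gives one, medians at 10 μg ran from 0.02 for V1rf (n = 6) to 0.40 for V1rj (n = 2), and the 54 profiles with no letter had 0.41.

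Grouping by the number of near copies largely repeated the grouping by the run. Of 135 single-gene profiles with a compared window, the 21 whose gene had 5 or more other windows at 90% or more had a median of 0.75 at 10 μg and 0.54 at 1 μg. All 21 are among the 23 profiles whose gene a multi-gene profile of the run also names, so this is not an independent grouping. The 40 with 1 to 4 had 0.18 and 0.03, and the 74 with none 0.14 and -0.02. Both ends of the first set are named above, from Vmn1r129 at 2.69 to Vmn1r116 at -0.27.

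Outside the run, 31 of 141 single-gene profiles had all 10 μg arrays above control, or 22.0%, beside the 14.3% of all named probe sets. The lowest of the family was Vmn1r227 on chromosome 17, at 4.12, 3.44 and 3.54 in control, 3.11, 3.25 and 2.92 after 1 μg and 3.10, 3.25 and 3.64 after 10 μg. It differed by -0.37 at 10 μg and -0.61 (standard error 0.20) at 1 μg, where it did not overlap with control. Vmn1r45, Vmn1r-ps103 and Vmn1r33 differed by -0.27, -0.18 and -0.16 at 10 μg, and all 3 overlapped with control.

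Vmn1r14 on chromosome 6 went in opposite ways at the doses, at 3.58, 4.10 and 3.95 in control, 3.47, 2.89 and 3.61 after 1 μg and 4.23, 5.11 and 4.02 after 10 μg. Both doses overlapped with control, and the difference between doses was 1.13. Vmn1r6 was at 2.41, 2.43 and 2.16 in control and 1.97, 1.86 and 1.86 after 1 μg, without overlap, and it differed by -0.44 at 1 μg and 0.09 at 10 μg.

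Receptors with a known class of ligand were less than 2-fold from control. Vmn1r49, which answers to a ketone of mouse urine, was at 2.57, 2.75 and 2.49 in control, 2.75, 2.68 and 2.70 after 1 μg and 2.72, 2.88 and 2.83 after 10 μg, an overlapping difference of 0.21. Vmn1r85 and Vmn1r89, receptors of sulfated estrogens, differed by 0.48 and 0.32 at 10 μg and by 0.42 and 0.05 at 1 μg. There were 3 genes with a pair of single-gene probe sets, and at 10 μg these differed from control by 0.24 and 0.49 for Vmn1r208, 0.41 and 0.48 for Vmn1r212 and 0.10 and -0.15 for Vmn1r233.

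Between doses, multi-gene profiles had a median of 0.66 more at 10 μg than at 1 μg, and single-gene profiles 0.16. Only Vmn1r14 was over 2-fold apart with an unadjusted p under 0.05 in limma, beside 0.0158% of all named probe sets. The multi-gene median between doses was 0.31 without the second 1 μg array and 1.05 without the third 10 μg array.

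None of the 210 profiles passed limma's test at an adjusted p of 0.05, adjusted over all 25341 named probe sets, in any of the 3 comparisons. The shares of all named probe sets that passed were 0.0197% at 10 μg, 0% at 1 μg and 0% between doses. At an unadjusted p of 0.05, 78, 47 and 32 of the 210 passed, beside 17.4%, 9.04% and 10.4% of all named probe sets, and an ordinary test with no moderation called 0 in each comparison after adjustment. The count at 10 μg was 31 without the third 10 μg array, 26 without the second 1 μg array and 2 without the first. The share of all named probe sets that passed in these fits was not computed, so nothing is read from these counts. The median standard error was 0.39 for multi-gene and 0.16 for single-gene members, against 0.093 over all named probe sets.

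Most single-gene profiles were dim. A mean among the lowest 25% of all probe sets, at or under 4.71, was found in 149 of 180, against 1 of the 25 multi-gene profiles of the run. Among single-gene profiles, 126 of 141 outside the run and 12 of the 23 whose gene a multi-gene profile also names were dim. The dim probe sets of 1 gene outside the family (n = 4568) had medians of 0.06 at 10 μg and -0.00 at 1 μg.

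The other genes of V1R signalling and the markers of vomeronasal neurons had median differences below 0 at 10 μg. Of 10 neuron markers measured, 3 had a positive difference at 10 μg, the median was -0.12, 3 were dim, and none had all 10 μg arrays above control. Trpc2, the transduction channel, was at 7.29, 7.25 and 7.10 in control and 7.08, 7.11 and 6.96 after 10 μg. Omp, the olfactory marker protein, was at 5.68, 5.74 and 5.69 in control and 5.66, 5.40 and 5.36 after 10 μg, all below control.

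Of 11 signalling genes measured, 4 had a positive difference at 10 μg, and the median was -0.07. Gnai2, a G protein subunit that many cell types use, was at 9.49, 9.51 and 9.41 in control and 9.62, 9.81 and 9.77 after 10 μg, a difference of 0.26 without overlap. Ano2, a calcium-activated chloride channel also present at photoreceptor synapses, differed by 0.16, and Omp by -0.23.

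**Figure D5:**
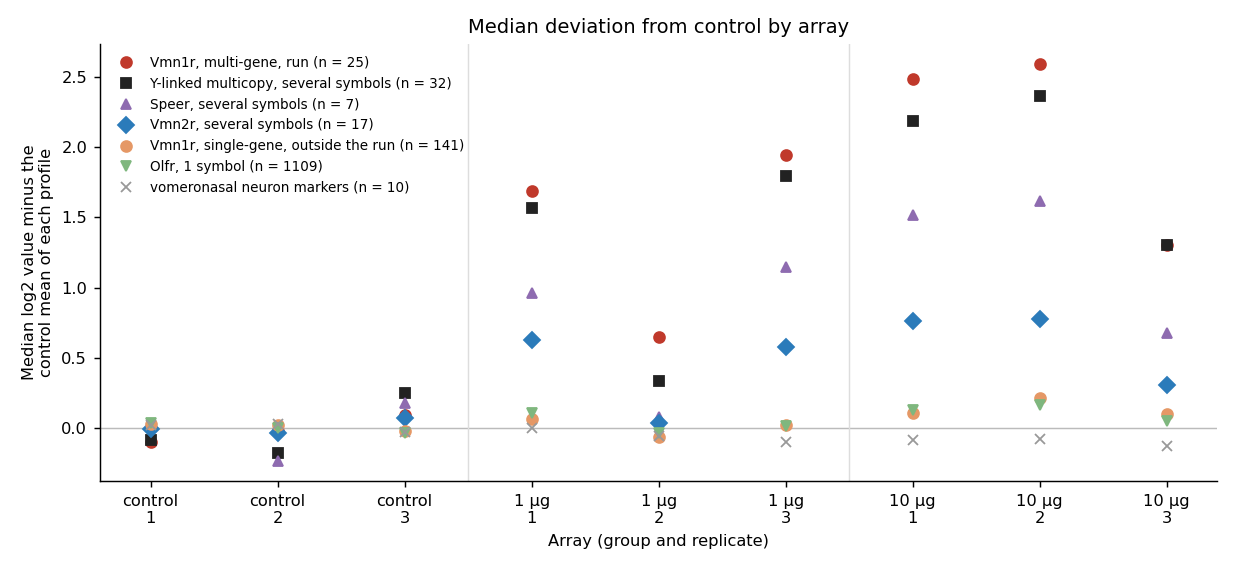
Medians over each set of profiles of the log2 value minus the profile's control mean, on each array. All sets but the vomeronasal neuron markers have the second 1 μg array and the third 10 μg array lowest of their groups, at different sizes. The vomeronasal neuron markers stay at or under 0.03.

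The same order of arrays was seen in some other multicopy families and not in others. Y-linked multicopy genes, among them Sly and Ssty1, which male germ cells express, had medians of 1.56, 0.33 and 1.79 on the 1 μg arrays and 2.19, 2.37 and 1.30 on the 10 μg arrays (32 profiles of several symbols). The 9 Y-linked profiles of 1 symbol had 1.22, 0.64 and 1.68, then 2.29, 2.68 and 1.47, and 8 of them were over 2-fold at 10 μg. Speer profiles of several symbols (n = 7), also of a germ cell family, had 0.96, 0.08 and 1.15, then 1.52, 1.61 and 0.68. The 15 Speer profiles of 1 symbol had 0.37, -0.04 and 0.14, then 0.29, 0.48 and 0.22. Male germ cell markers outside these families (8 measured) had a median of -0.03 at 10 μg. Of these 8, 4 were dim, 2 had all 10 μg arrays above control (Prm1, a protamine, by 0.32 and Odf1, a sperm tail protein, by 0.38), and none had all of them below. Type 2 vomeronasal receptor profiles of several symbols (n = 17) also had this order, at 0.62, 0.03 and 0.57, then 0.76, 0.78 and 0.31. Odorant receptor (Olfr) profiles of several symbols (n = 20) did not, at 0.12, -0.01 and -0.04 on the 1 μg arrays. Nor did Taar profiles (n = 15), at 0.08, -0.01 and -0.04 on those arrays. Fpr profiles (n = 4) were at 0.20, 0.11 and 0.60 on the 10 μg arrays, with the second lowest. Profiles outside the family of 10 or more symbols (n = 79) had 0.22, 0.01 and 0.27, then 0.51, 0.38 and 0.23. Those of 1 symbol (n = 23275) did not follow it as a whole, at 0.06, 0.02 and 0.01, then 0.01, 0.02 and 0.02. The dim ones among them (n = 4568) did, at small sizes of 0.06, -0.04 and -0.02, then 0.05, 0.05 and 0.02. Olfr profiles of 1 symbol (n = 1109) also did, at 0.11, -0.04 and 0.01, then 0.13, 0.16 and 0.05. The part of this shared array pattern in the Vmn1r differences was not tested.

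Type 2 vomeronasal receptors (Vmn2r), the receptors of the basal neurons of the organ, had a median of 0.64 at 10 μg and 0.42 at 1 μg in 17 profiles of several symbols, none over 2-fold, and of 0.16 and -0.02 in 116 of 1 symbol. Odorant receptors (Olfr) had 0.14 and 0.03 in 1109 profiles of 1 symbol, and bitter taste receptors (Tas2r, n = 35) 0.16 and 0.02. These lie close to the 0.14 and 0.00 of single-gene Vmn1r profiles outside the run, and the differences between families were not tested.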

How the data were processed

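Retinal RNA of 3 groups was measured on 9 Affymetrix Mouse Gene ST arrays. The authors deposited log2 values made with the RMA algorithm in Affymetrix Expression Console 1.1 (background correction, normalization between arrays and summary per probe set), and the images were not used here. The array named in the methods is an earlier design than the one the identifiers match. Symbols came from the platform annotation. Genes, their neighbours (runs end at a gap over 1000000 bases) and windows came from RefSeq tables (GRCm38.p6); 232 of 232 symbols matched. Windows with an ATG at the gene start were aligned end to end with Biopython 1.88 with free end gaps. Identity was taken over pairs with at least 240 aligned bases.

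The 3 groups were fitted together over the named probe sets (limma 3.58.1, R 4.3.3), with Benjamini-Hochberg adjustment. The steps were tested on simulated data. The genes named are the highest and lowest single- and multi-gene profiles by difference, those beside the 2-fold line, those of known ligands and the most changed signalling genes; Vmn1r173, Vmn1r119, Vmn1r128, Vmn1r208, Vmn1r212 and Vmn1r233 were added after their values were seen. The members and lists were chosen with earlier results of these data known. Alternatives were other normalizations, filters, priors, weights, a replicate block and each array left out. Array values have no read depth, so the number of arrays limits the precision.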

Additional observations from a re-analysis of the deposited data

How the results depend on the processing

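Multi-gene counts past the thresholds at 10 μg were 24 to 25 under the alternatives run, of 30 profiles or, without dim probe sets, of 26, and all 24 remained in each of the 9 fits without 1 array. At 1 μg the multi-gene count ran from 16 (without the third 1 μg array) to 25 when 1 array was left out. The single-gene median at 1 μg ran from -0.0059 to 0.0683 without 1 array, and was -0.0049 with array weights and 0.114 without dim probe sets. The number of profiles past the adjusted test at 10 μg ran from 0 to 31 without 1 array, and was 6 with cyclic loess, 25 with median centring, 12 without dim probe sets and 25 with a trend and robust prior. Shares of all named probe sets were not computed under the alternatives, and the cause was not tested.

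With the replicate block, the counts past the thresholds were 24 multi-gene and 11 single-gene at 10 μg and 23 and 6 at 1 μg, and 0 passed after adjustment. As far as is known, samples with the same replicate number share only that number, and their residuals correlated between -0.201 and 0.126. Residuals of arrays that differed in both number and group correlated between -0.176 and 0.316. The highest of all, 0.316, was that of 1 μg replicate 2 with 10 μg replicate 3. These arrays were the lowest of their groups in 25 of 25 multi-gene profiles of the run. What they have in common was not tested. The block changed no call by over 1.5 times. Each group had 3 pools, and 149 of 180 single-gene profiles were dim.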
